A study of Mus musculus with 4 samples.

Results

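The genes described here are Gpnmb, Trem2, Apoe, Lpl, Fabp4, Fabp5, Plin2, Abca1, Abcg1 and Lgals3, which handle lipid uptake, storage and export and are known together as genes of lipid-associated macrophages. They were taken as a list of names, chosen with earlier results of these data known, and all 10 were found among the 27998 genes of each count matrix. The data are single-cell RNA-seq of leukocytes from the tibialis anterior muscle of male mice aged 8 to 12 weeks, injured with cardiotoxin, a snake venom toxin that kills muscle fibres. Cells were enriched with CD45 magnetic beads 2 or 4 days post injury (dpi2 and dpi4). The control mice were Bach1 fl/fl littermates, and the mice labelled KO were Bach1 fl/fl Lyz2 Cre, both of C57BL/6 background and both carrying loxP sites around 1 exon of Bach1. Cre was driven by the myeloid promoter Lyz2, so deletion was aimed at monocytes, macrophages and neutrophils and not at the other leukocytes. Each of the 4 groups (control dpi2, KO dpi2, control dpi4, KO dpi4) was 1 library. Genotype and day therefore cannot be told apart from differences between single libraries, no test was possible, and every interval below covers counting error only.

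Macrophages that clear dying fibres engulf large amounts of membrane lipid, which they must break down, store or pass on. TREM2 is a surface receptor for lipids and dying cells, and GPNMB is a glycoprotein of lysosomes and the cell surface that accumulates in lipid-loaded macrophages. Lipoprotein lipase and the fatty acid binding proteins bring in and shuttle fatty acids, PLIN2 coats lipid droplets, and ABCA1 and ABCG1 export cholesterol to lipoprotein particles that contain APOE. BACH1 is a heme-sensitive repressor that binds DNA with small Maf proteins at sites that contain an AP-1 like core, TGACTCA or TGAGTCA.

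Promoter windows from RefSeq (GRCm38.p6, 250 bases before to 50 bases after each start site) were at hand for 6 of the 10 genes, with 8 start sites in all. Lpl, Fabp4, Fabp5 and Abcg1 were the other 4. Exact copies of TGANTCA, read on both strands, were found at Gpnmb and Trem2, and these are shown because they were the only matches of any searched motif in the windows of the list. Capitals mark the match. The stretch of Gpnmb is chr6:49036516-49036542 on the plus strand, and its match begins 8 bases after the RefSeq start site. The stretch of Trem2 is chr17:48346382-48346408 on the plus strand, and its match begins 9 bases before the start site.
Gpnmb: caggggcaagTGACTCAtgagcacgag
Trem2: tctccctcctTGAATCAcagcgcctac
TGANTCA leaves the middle base open: it is C at Gpnmb, as in the core named above, and A at Trem2, unlike that core. This open pattern was present in 7.81% of 32851 promoter windows of the same length. Neither TGACNNNGC, the core of the antioxidant response element, which 12.4% of the windows held, nor a longer Maf-type motif, TGANTCA with TGC directly before it, which 0.423% held, was present in the windows of the 6 genes. The matches are a description of the sequence and not evidence of binding.

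Summed over all barcodes, the libraries held between 57010520 and 80228489 unique molecular identifiers (UMIs, each a counted transcript molecule), and 17011 of 20500 barcodes were kept as cells. Of the kept barcodes, 33 sequences occurred in more than 1 library and none in more than 2. Ptprc, which encodes CD45, was present at 530 to 635 UMIs per 1000000 UMIs (CPM), and Xist was near 0 in all libraries. Lyz2, the locus that carries Cre, was at 9388 CPM in control dpi2 against 17.5 CPM in KO dpi2 and at 15845 against 21.6 CPM at dpi4, which follows the labels. The KO libraries thus held almost no Lyz2 transcript and came from mice with Cre, unlike the control libraries. Ratios of KO over control cannot tell the loss of Bach1 from these differences. Bach1 itself was at 189 and 207 CPM in the control libraries and at 187 and 217 CPM in the KO libraries, but 3′ counts per gene cannot show the loss of 1 internal exon, so this checks nothing.

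Across the leukocytes, the 10 genes were foremost macrophage genes. Cells were grouped into classes from marker genes that include none of the list, and the UMIs of each class were summed per library and expressed as CPM of that class. Macrophages numbered 2062 cells in control dpi2, 1141 in KO dpi2, 3416 in control dpi4 and 2722 in KO dpi4. They had the highest level of all named classes with at least 30 cells in 36 of the 40 combinations of gene and library. The exceptions were Fabp4 at dpi4, where the 45 monocytes of control and the endothelial cells of KO stood higher, and Abcg1 at dpi2, where neutrophils were level with macrophages or above them. The interval of the macrophage level overlapped that of the neighbouring class in 3 combinations, for Abcg1 in every library but KO dpi4. In all other combinations macrophages stood apart from their named neighbours in the order by more than counting error. A neutrophil-like cluster led by Il1f9, Mirt1 and Irg1 could not be named and is left out of this order (88 cells in control dpi2 and 473 in KO dpi2). With it counted, macrophages were again first in 36, but its Gpnmb level was close to theirs and its Abcg1 level higher, at 143 CPM in control dpi2, where the intervals overlapped, and 120 CPM in KO dpi2. The list is named for macrophages and was chosen with earlier results known, and the share of all genes with macrophages first was not computed. The count of 36 is therefore a description only.

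Specificity differed from gene to gene. Gpnmb in macrophages stood 4.89-fold to 9.13-fold above the next named class, which was monocytes at dpi2 and fibroblasts at dpi4. Over the unnamed neutrophil-like cells at dpi2 it was only 1.11-fold higher in control, with overlapping intervals, and 1.36-fold higher in KO. Trem2 stood 3.10-fold to 6.64-fold and Apoe 2.42-fold to 4.27-fold above the next named class. Lgals3 was broader, only 1.33-fold to 1.53-fold above monocytes, and Lpl at dpi4 was 2.06-fold above fibroblasts in control and 2.37-fold above monocytes in KO. T or NK cells served as a comparison for free RNA, although T cells are known to use Abcg1 and Lgals3 themselves, so for these genes the comparison is not one of free RNA alone. Where theirs was above 0, the macrophage level was at least 9.05-fold above it for 9 of the genes and 2.75-fold to 5.74-fold for Abcg1.

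**Figure D1:**
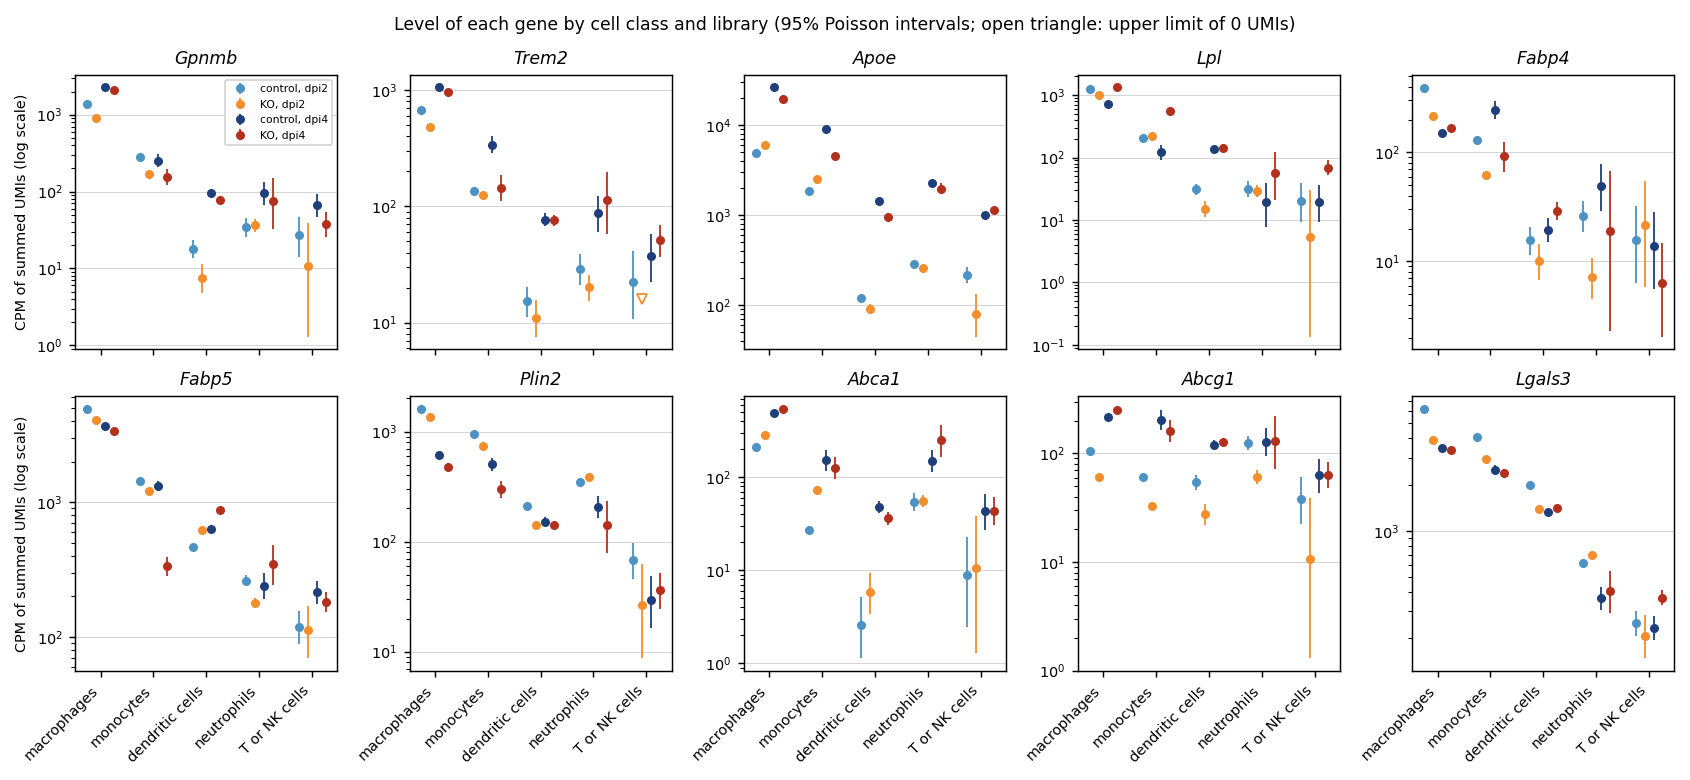
Level of each of the 10 genes as CPM of summed UMIs (log axis) in macrophages, monocytes, dendritic cells, neutrophils and T or NK cells, with 1 point per library and exact 95% Poisson intervals. Macrophages carry the highest points for nearly all genes, Apoe at dpi4 (26544 and 19418 CPM in control and KO) lies far above dpi2 (4887 and 6057 CPM), and the open triangle marks the upper limit where no UMI was counted.

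Among the surface proteins, Gpnmb and Trem2 shared 1 pattern: lower in KO than in control at dpi2, nearly level at dpi4, and higher at dpi4 than at dpi2 in both genotypes. Gpnmb in macrophages was at 1387 CPM in control dpi2, 902 CPM in KO dpi2, 2277 CPM in control dpi4 and 2073 CPM in KO dpi4. KO over control was thus 0.651 (interval 0.641 to 0.660) at dpi2, while the dpi4 pair gave 0.910 (0.903 to 0.918). Trem2 was at 680.0 CPM in control dpi2, 481 CPM in KO dpi2, 1057 CPM in control dpi4 and 966 CPM in KO dpi4. Its ratios of KO over control were 0.708 (0.694 to 0.722) on the earlier day and 0.914 (0.903 to 0.925) on the later. The order of the 4 libraries was the same for both genes, with KO dpi2 lowest and control dpi4 highest. From dpi2 to dpi4, Gpnmb was 1.64-fold higher in control and 2.30-fold higher in KO. For Trem2 the same ratios were 1.55 and 2.01.

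Apoe, which encodes the main lipoprotein component secreted by macrophages, had the widest span of the list between days in control, while in KO that of Abcg1 was wider. Its macrophage level was 4887 CPM in control dpi2 and 6057 CPM in KO dpi2, against 26544 CPM in control dpi4 and 19418 CPM in KO dpi4. The KO library was the higher of the pair at dpi2, with a ratio of 1.24 (1.23 to 1.25), and the lower at dpi4, with a ratio of 0.732 (0.730 to 0.733). From dpi2 to dpi4 the level was 5.43-fold (5.41 to 5.46) higher in control and 3.21-fold (3.19 to 3.22) higher in KO. In T or NK cells Apoe was at 218 CPM in control dpi2 and 80.04 CPM in KO dpi2 and at 1002 and 1144 CPM at dpi4, so Apoe RNA outside its main source was also higher at dpi4. The macrophage level was 17.0-fold to 75.7-fold above that of T or NK cells.

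Of the genes for fatty acid uptake and transport, Lpl differed most between the genotypes at dpi4. Lpl, which encodes the lipase that frees fatty acids from lipoproteins, was at 1252 CPM in control dpi2, 1009.7 CPM in KO dpi2, 707 CPM in control dpi4 and 1335 CPM in KO dpi4. The control library at dpi4 was therefore the low one, and the other 3 lay closer together. The dpi2 pair gave a KO over control ratio of 0.807 (0.795 to 0.818) and the dpi4 pair 1.89 (1.86 to 1.91). The latter ranged from 1.76 to 1.91 over the 11 other ways of processing. Between days, Lpl at dpi4 was at 0.565 (0.558 to 0.572) of its dpi2 level in control, whereas in KO the ratio was 1.32 (1.30 to 1.34). On the log2 scale the other ways of processing gave -0.93 to -0.23 in control, against -0.82, and 0.30 to 0.80 in KO, against 0.40. In T or NK cells at dpi4 Lpl was at 19.7 CPM in control and 69.0 CPM in KO, from 10 and 55 UMIs. Fibroblasts ran the other way, at 344 CPM in control and 147 CPM in KO. The dendritic cell ratio was 1.06 (0.934 to 1.20), but its log2 value of 0.08 ran from -0.65 to 0.95 over the other ways of processing. Fabp5, a fatty acid carrier of macrophages, was more even, at 4895 CPM in control dpi2, 4032 CPM in KO dpi2, 3674 CPM in control dpi4 and 3378 CPM in KO dpi4. Its ratio of KO over control was 0.824 at dpi2 and 0.919 at dpi4.

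Fabp4, the fatty acid carrier best known from fat cells and capillary endothelium, was sparse and uneven in macrophages. Its macrophage level was 392 CPM in control dpi2, 214 CPM in KO dpi2, 151 CPM in control dpi4 and 167 CPM in KO dpi4, giving a ratio of KO over control of 0.546 (0.531 to 0.562) for the dpi2 pair and 1.10 (1.07 to 1.14) for the dpi4 pair. Most of its UMIs came from few cells: with each cell thinned to 2000 UMIs, the top 10% of macrophages held 68.4% of Fabp4 UMIs in control dpi2, 83.3% in KO dpi2, 96.8% in control dpi4 and 99.1% in KO dpi4. At dpi4, 89.3% of thinned control macrophages and 89.8% of KO held no Fabp4 UMI. The dpi4 shares thus follow from sparsity, and their excess over dpi2 does not show concentration. Endothelial cells, with 15, 10, 25 and 35 cells in the 4 libraries in the same order, had Fabp4 at 11830, 4342, 11108 and 10249.5 CPM and held 18.9%, 10.1%, 40.7% and 48.4% of all its UMIs. The 5 endothelial markers summed to 9.78 to 15.4 CPM in macrophages, with Emcn at 0 in control dpi2. The 5 adipocyte markers summed to 0.385 to 2.26 CPM, with Plin1 and Cidec at 0 in control dpi2 and Cidec at 0 in KO dpi2. Whether endothelial RNA takes part in the Fabp4 values of macrophages was not tested.

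Plin2, which encodes the coat protein of lipid droplets, was the only gene of the list that was more than 2-fold lower at dpi4 in both genotypes. It was at 1597 CPM in control dpi2, 1347 CPM in KO dpi2, 612 CPM in control dpi4 and 479 CPM in KO dpi4. The 2 dpi2 libraries were both well above the 2 dpi4 libraries. The ratio of dpi4 over dpi2 was 0.383 (0.378 to 0.388) in control and 0.355 (0.350 to 0.361) in KO. Between genotypes it was lower in KO, at 0.843 (0.832 to 0.853) of control at dpi2, whereas at dpi4 the ratio was 0.782 (0.770 to 0.795). Plin2 shared a lower level in KO on both days with Gpnmb, Trem2, Fabp5 and Lgals3.

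The sterol exporters differed between days in the direction opposite to Plin2. Abca1, which loads cholesterol onto lipid-poor apolipoproteins, was at 214 CPM in control dpi2, 283 CPM in KO dpi2, 494 CPM in control dpi4 and 539 CPM in KO dpi4. It was the only gene of the list with a higher level in KO macrophages on both days, 1.32 (1.28 to 1.36) at dpi2, then 1.09 (1.07 to 1.11) at dpi4. Abcg1, which exports cholesterol to mature lipoproteins, was at 105 CPM in control dpi2, 61.2 CPM in KO dpi2, 216 CPM in control dpi4 and 254 CPM in KO dpi4. KO dpi2 was thus the low library, with a ratio of KO over control of 0.581 (0.550 to 0.614), while at dpi4 the ratio was 1.17 (1.14 to 1.20). Between days Abca1 was 2.31-fold higher in control and 1.91-fold in KO, and Abcg1 was 2.05-fold higher in control and 4.14-fold (3.95 to 4.35) in KO. Over the 11 other ways of processing, the log2 ratio of Abca1 ran from 1.14 to 1.84 in control, against 1.21. In KO it ran from 0.80 to 1.30, against 0.93, and passed 2-fold under 3 of them. Lgals3, which encodes galectin-3, a sugar-binding protein of damaged lysosomes, was at 6198 CPM in control dpi2, 3924 CPM in KO dpi2, 3455 CPM in control dpi4 and 3336 CPM in KO dpi4. Control dpi2 was the single high library for Lgals3, with a ratio of KO over control of 0.633 (0.629 to 0.637) at dpi2, whereas the dpi4 pair gave 0.966 (0.959 to 0.972).

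Comparing the genotypes, none of the 10 genes differed by the 2-fold size set as the rule in macrophages. The rule asked for a ratio of at least 2-fold, an interval that leaves out 1 and at least 50 UMIs in the pair of libraries. At dpi2 it took in 0 of the 10 genes, with a background of 4.46% of 11156 genes with enough UMIs, and at dpi4 again 0 of 10, with a background of 2.77% of 12109 genes. Smaller differences ran mostly 1 way at dpi2: 8 of the 10 genes had an interval wholly below 1 and 2, Apoe and Abca1, an interval wholly above 1, where the background was 26.9% below and 25% above. The median log2 ratio of the list was -0.40 at dpi2, against -0.02 over all genes. At dpi4, 6 genes lay below and 4 above (background 23% and 27.8%), with a median log2 ratio of -0.09 against 0.02. The intervals of all 10 genes left out 1 on both days. The background takes in genes with as few as 50 UMIs, whose wider intervals more often include 1, so these shares are not like for like. In the dpi4 macrophages the 5 muscle fibre markers summed to 91.4 CPM in control and 33.3 CPM in KO, and the fibroblast markers to 23.4 and 11.5 CPM. Macrophages of KO dpi2 were more deeply sampled, with a median of 25676 UMIs per cell against 17749.5 in control dpi2, and the 8 neutrophil markers summed to 306 CPM in them against 106 CPM. The part of any of these in the ratios was not tested.

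**Figure D2:**
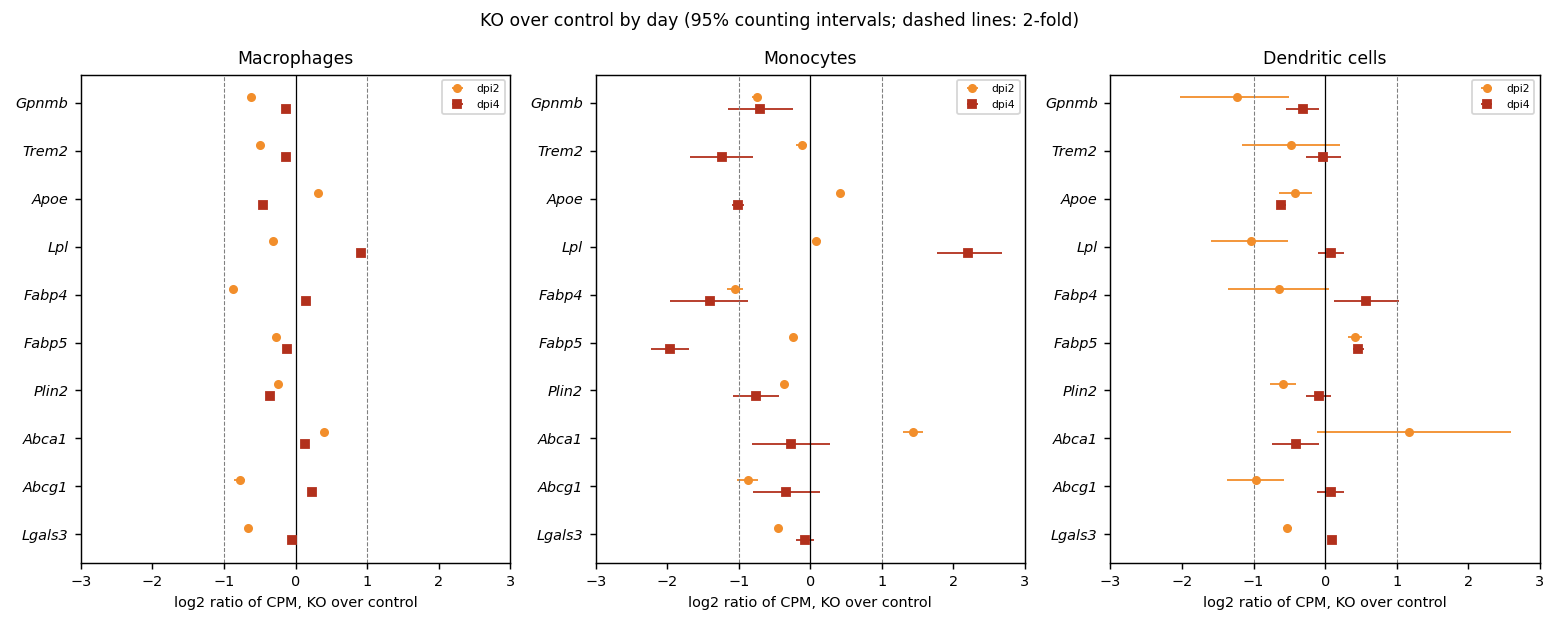
Log2 ratio of CPM, KO over control, for each gene in macrophages, monocytes and dendritic cells at dpi2 (circles) and dpi4 (squares), with 95% counting intervals and dashed lines at 2-fold. In macrophages no gene passes 2-fold, Lpl at dpi4 comes closest at 1.89, and Apoe, Lpl, Fabp4 and Abcg1 lie on opposite sides of 0 on the 2 days.

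Within single macrophage clusters the Lpl difference at dpi4 was present throughout. Clusters were computed over all libraries without the 10 genes, and 7 macrophage clusters held at least 30 cells of both dpi4 libraries. Lpl was higher in KO in 7 of 7, with ratios from 1.57 to 2.09, and passed the rule in cluster 1, led by Slc40a1, Gdf15 and Vcam1 (2.09, interval 2.02 to 2.15). Apoe was lower in KO in 7 of 7, with ratios from 0.534 to 0.977, and Plin2 was lower in 7 of 7, with ratios from 0.621 to 0.891. Gpnmb was mixed, higher in KO in 2 and lower in 5, with ratios from 0.591 to 1.20. At dpi4 Gpnmb reached its highest level in cluster 7, led by Mfge8, Fbxo32 and Cd5l, with 5013 CPM in control and 3792 CPM in KO. Fabp4 was the most uneven, at 2.17 (2.01 to 2.35) in cluster 5, led by Txnip and Mfge8, and at 0.338 (0.281 to 0.404) in cluster 14, led by the cell division genes Top2a and Birc5.

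At dpi2, 3 macrophage clusters held enough cells of both genotypes. Cluster 0, with Pdpn and Jag1 among its leading genes, and cluster 9, led by Lyve1, Cd163 and Mrc1, held most macrophages of both libraries, and cluster 12, led by Retnla and Mmp12 and with several MHC class II genes, was smaller. Cluster 12 had the lowest macrophage marker score of the clusters named macrophages, and 14.5% to 83.3% of its control dpi2 cells went to the dendritic class when the cells were clustered anew. Without it each of the 10 macrophage ratios between genotypes kept its side of 1 on both days, with Apoe at 1.32 and Abca1 at 1.38 at dpi2 and Lpl at 1.88 at dpi4. Clusters 0 and 9 differed widely in level, with Gpnmb in control at 2019 CPM in cluster 0 against 127 CPM in cluster 9. Their ratios of KO over control were nevertheless close for several genes: Gpnmb was at 0.626 and 0.664, Trem2 at 0.732 and 0.751, Lgals3 at 0.618 and 0.692, Abcg1 at 0.584 and 0.609, and Abca1 at 1.42 and 1.36. Fabp4 and Fabp5 were not alike there, with 0.560 (0.543 to 0.577) and 0.815 (0.809 to 0.821) in cluster 0 against 1.30 (1.10 to 1.54) and 1.25 (1.21 to 1.29) in cluster 9. Lpl was at 0.736 (0.723 to 0.749) in cluster 0 and 0.923 (0.892 to 0.956) in cluster 9, but at 1.17 (1.10 to 1.24) in cluster 12, against 0.807 in the class. Cluster 12 also went the other way for Gpnmb, at 313 CPM in control and 671 CPM in KO, a ratio of 2.14 (1.97 to 2.33), and for Apoe, with a ratio of 0.669 (0.635 to 0.705). When macrophages and monocytes were clustered again by themselves, most sub-clusters came mainly from 1 library (for example 1297 of 1391 cells of the sub-cluster led by Hmga2 and Htr2b were of control dpi2).

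A single sub-cluster had at least 30 cells of all 4 libraries, and part of the list ran against the class in it. It was led by Retnla and MHC class II genes, with the dendritic cell genes Cd209a and Klrd1 among its leading genes, and held 79 cells of control dpi2, 105 of KO dpi2, 68 of control dpi4 and 395 of KO dpi4. Gpnmb in it was higher in KO on both days, 4.42-fold (3.72 to 5.29) at dpi2 and 3.81-fold (3.35 to 4.35) at dpi4, and at dpi4 Trem2 (2.21) and Fabp5 (2.60) were too, all lower in KO in the class. Lpl and Fabp5 at dpi2, with ratios of 1.68 (1.54 to 1.83) and 1.74 (1.64 to 1.85), and Plin2 at dpi4, with 1.15 (1.04 to 1.27), were likewise opposite to the class. Apoe at dpi4 was at 2719 CPM in control and 10792 CPM in KO, a ratio of 3.97 (3.84 to 4.11), again opposite to the class. Other genes had the direction of the class: Abcg1 (0.502) and Lgals3 (0.676) were lower at dpi2, Lpl at dpi4 was at 1.60, and Abca1 was at 2.78 at dpi2 and 2.98 at dpi4. Apoe at dpi2 was at 2.39 (2.18 to 2.62), the direction of the class but opposite to its ratio in cluster 12, although cluster 12 gave 75 of the 79 control and 85 of the 105 KO dpi2 cells. Cluster 12 held 138 control and 123 KO dpi2 cells, so the cells compared were not the same. The 2 genotypes did not supply it from the same clusters at dpi4. Of its control dpi4 cells, 64 of 68 were in cluster 12, whereas of its KO dpi4 cells 131 of 395 were in cluster 12 and 199 in cluster 4, led by Tmem176b and Tmem176a. The part of this in the ratios was not tested. The sub-cluster led by Mt3, Ctsk and Mmp12 held 71 control and 39 KO cells at dpi2. There Apoe was at 0.278 (0.257 to 0.2998) and Abca1 at 0.342 (0.206 to 0.548, from 23 KO and 83 control UMIs), both opposite to the class. Of the other 8 genes, Lpl was at 0.958 (0.880 to 1.04) and the rest ranged from 0.418 for Fabp4 to 0.636 for Lgals3, below 1 as in the class. At dpi4 the sub-cluster led by Cenpf and Top2a held 58 control and 55 KO cells. Apoe was at 1.05 (1.03 to 1.07) there and Fabp4 at 0.242 (0.199 to 0.293), both opposite to the class. Lpl was at 1.73 (1.63 to 1.84), Abca1 at 1.08 (0.973 to 1.20) and Abcg1 at 0.968 (0.838 to 1.12). The rest ranged from 0.550 for Fabp5 to 0.823 for Trem2, below 1 as in the class.

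**Figure D3:**
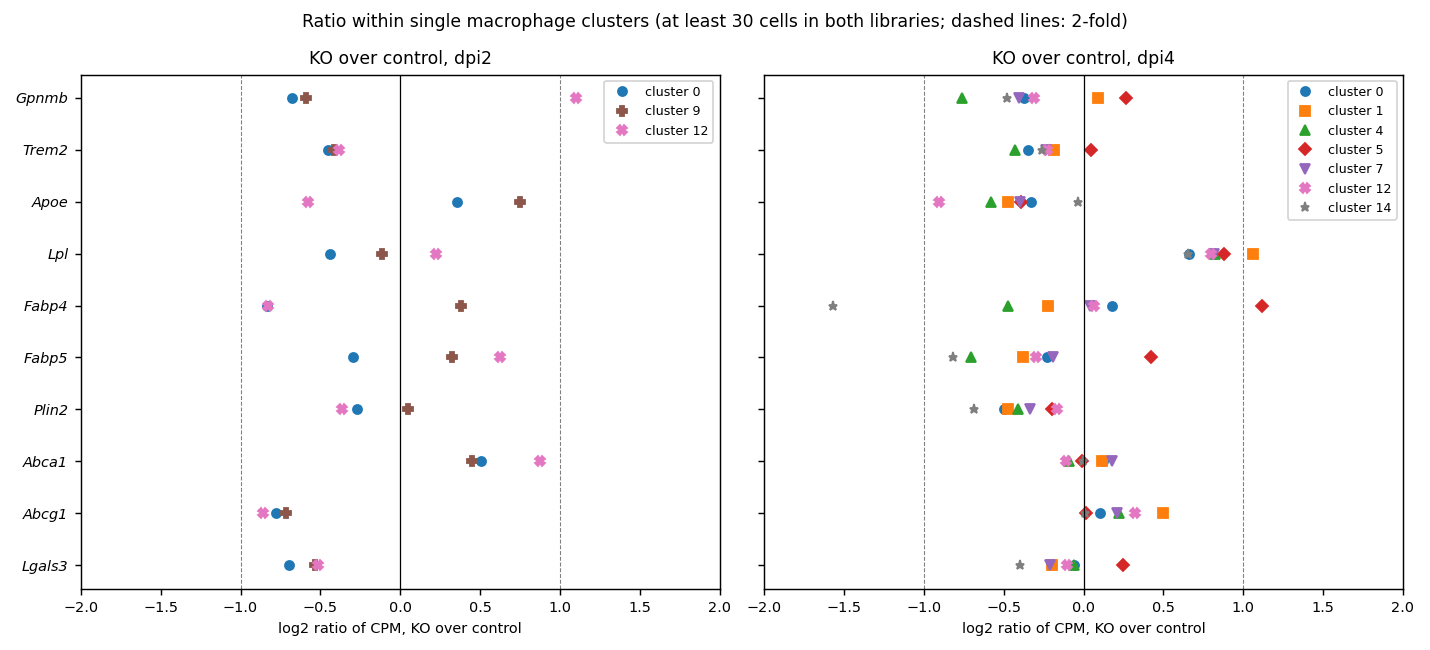
Log2 ratio of CPM, KO over control, of each gene within single macrophage clusters with at least 30 cells in both libraries, at dpi2 (clusters 0, 9 and 12) and dpi4 (7 clusters); dashed lines mark 2-fold. All 7 points of Lpl at dpi4 lie right of 0, from 1.57 to 2.09 as plain ratios, and all 7 points of Apoe and of Plin2 lie left of it.

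The day comparison showed larger differences. In control macrophages, 5 of the 10 genes passed the rule, with a background of 16.4% of 11929 genes. Apoe, Abca1 and Abcg1 were higher at dpi4, and Fabp4, at 0.386 (0.377 to 0.397), and Plin2 were lower. In KO macrophages, 5 of 10 passed, with a background of 13.5% of 11511 genes: Apoe, Abcg1, Gpnmb and Trem2 were higher and Plin2 was lower. Trem2 stood at the limit, at 2.01 (1.97 to 2.04), and passed the rule under only 2 of 11 alternatives. Gpnmb in KO passed under 9 of 11, with a log2 ratio of 0.87 at equal weight per cell and 0.93 after thinning. In control, Abcg1 and Fabp4 each passed under 10 of 11, with 0.98 for Abcg1 after thinning and -0.90 for Fabp4 with monocytes pooled in. The other 6 calls passed under all 11. The median log2 ratio of the list was 0.11 in control and 0.67 in KO, against -0.07 and -0.04 over all genes. Fabp5 and Lgals3 were lower at dpi4 in both genotypes, with ratios of 0.751 and 0.557 in control and 0.838 and 0.850 in KO, and neither passed 2-fold. Other classes also differed between days. In dendritic cells 6 of 10 genes passed as higher in control and 7 of 10 in KO (background 3.75% and 4.65%). In neutrophils 4 of 10 and 4 of 9 did (8.52% and 13.6%), and in monocytes 4 and 2 of 10 (4.87% and 5.66%). T or NK cells had 1 of 3 and 3 of 5 (2.9% and 4.43%). None passed as lower except 2 in KO monocytes and 1 in KO neutrophils (3.52% and 4.39%). Higher levels at dpi4 were thus not particular to macrophages. The macrophage class was not made of the same cells on the 2 days. Clusters 0 and 9 held most macrophages at dpi2, clusters 1, 4, 5 and 7 held most at dpi4, and macrophages took 54.2% to 57.8% of all UMIs of kept cells at dpi2 but 85.9% to 87.4% at dpi4.

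Where clusters occurred on both days, levels could be set side by side. Cluster 0 in control had Plin2 at 1899 CPM at dpi2 and 1160.4 CPM at dpi4 (1284 and 69 cells). Its Apoe level was 5973 CPM at dpi2 and 11442 CPM at dpi4, below the 32347 CPM of cluster 1 at dpi4. In the same cluster the dpi4 over dpi2 ratio of Lpl was 1.12 (1.08 to 1.17) in control and 2.42 (2.33 to 2.50) in KO. Over the clusters with enough cells on both days, 5 in control and 2 in KO, Plin2 was lower and Apoe, Gpnmb, Abca1 and Abcg1 were higher at dpi4 in each. Other genes did not follow the class. Lgals3 ran from 0.386 to 1.38 in control and was higher at dpi4 in both KO clusters (1.32 and 1.51), and Fabp5 ran from 0.623 to 3.02 in control and from 1.02 to 1.48 in KO. Fabp4 in control passed the rule as lower in 1 cluster and as higher in 2 (0.158 to 2.99), and Lpl in control ran from 0.711 to 1.80, with an interval wholly above 1 in 2 clusters and wholly below in 2. Muscle fibre markers in macrophages also differed between days, from 5.91 to 6.33 CPM at dpi2 to 33.3 CPM in KO dpi4 and 91.4 CPM in control dpi4 for 5 markers, and fibroblast markers from 1.27 to 2.56 CPM at dpi2 to 11.5 and 23.4 CPM at dpi4. Their part in the day ratios was not tested.

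**Figure D4:**
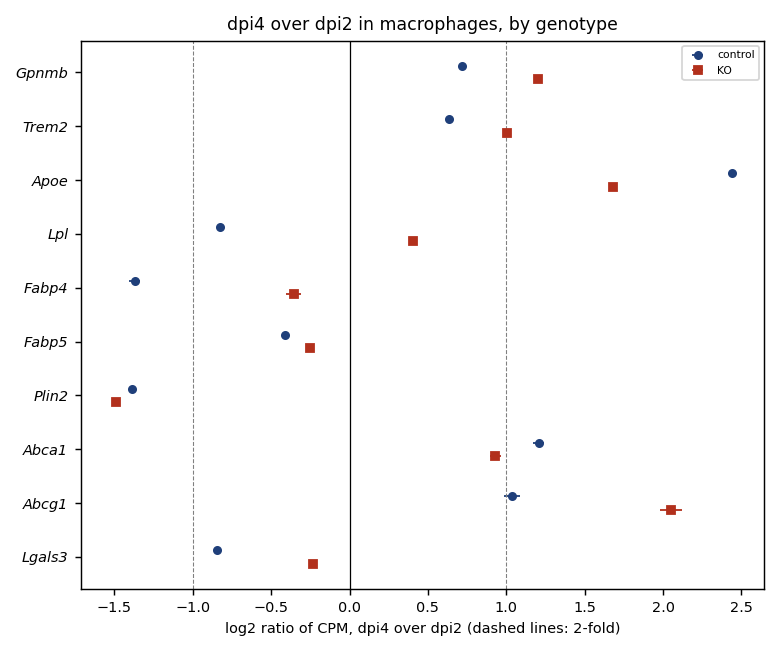
Log2 ratio of CPM, dpi4 over dpi2, of each gene in macrophages of the control (circles) and KO (squares) libraries, with 95% counting intervals and dashed lines at 2-fold. Apoe (5.43-fold in control, 3.21-fold in KO) and Abcg1 (2.05-fold and 4.14-fold) lie to the right, Plin2 (0.383 and 0.355) to the left, and Lpl lies on opposite sides of 0 in the 2 genotypes.

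The genes were also counted per cell. The share of cells with at least 1 UMI was taken after each cell was thinned to 2000 UMIs, which left out 61, 28, 77 and 70 macrophages in control dpi2, KO dpi2, control dpi4 and KO dpi4. Gpnmb was found in 54.5% of thinned macrophages in control dpi2, 42.7% in KO dpi2, 66.2% in control dpi4 and 61.0% in KO dpi4. Without thinning, the shares were 76.4%, 67.4%, 89.4% and 80.1%. T or NK cells, with median depths of 3931.5, 4623, 4918.5 and 4793 UMIs before thinning, gave 9.18%, 5.41%, 8.33% and 7.09% after thinning. Macrophages were deeper, at medians of 17749.5, 25676, 16287.5 and 15402 UMIs.

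Lpl was found in 61.4% of thinned macrophages in control dpi2, 53.6% in KO dpi2, 45.04% in control dpi4 and 64.7% in KO dpi4. Its shares in T or NK cells were 5.10%, 0 of 37 cells, 1.39% and 6.30%, where the count of 0 allows a share of up to 8.11%. Control dpi4 was thus again the low library. The share did not follow the level for every gene: Fabp5 was highest in control dpi4 (75.9%), Apoe at dpi2 was found in 89.4% of control and 88.4% of KO macrophages, and Fabp4 at dpi4 was no higher in KO, so no order is read from the shares of these 3 genes. Fabp4 was found in only 26.6%, 17.3%, 10.7% and 10.2% of macrophages in that order, against 2.04%, 5.41%, 5.56% and 0.787% of T or NK cells. Apoe was close to saturation at dpi4, in 99.8% of control and 98.9% of KO macrophages, but also in 88.9% and 66.9% of T or NK cells, so its share carries little at dpi4 and its level is the measure to read.

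A median of 6 of the 10 genes was detected per thinned macrophage in each of the 4 libraries, against 3 to 4 in monocytes. At least 7 of the 10 were detected in 45.5% of macrophages of control dpi2, 31.0% of KO dpi2, 44.4% of control dpi4 and 45.6% of KO dpi4. Among thinned macrophages the pair most alike from cell to cell was Gpnmb and Fabp5, with a correlation of 0.61 to 0.65 across the libraries, followed by Fabp5 and Lgals3 (0.48 to 0.61). Abca1 and Abcg1, the exporters, correlated at only 0.06 to 0.11, which in counts this sparse is no finding. These are descriptions across cells of 1 library each.

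**Figure D5:**
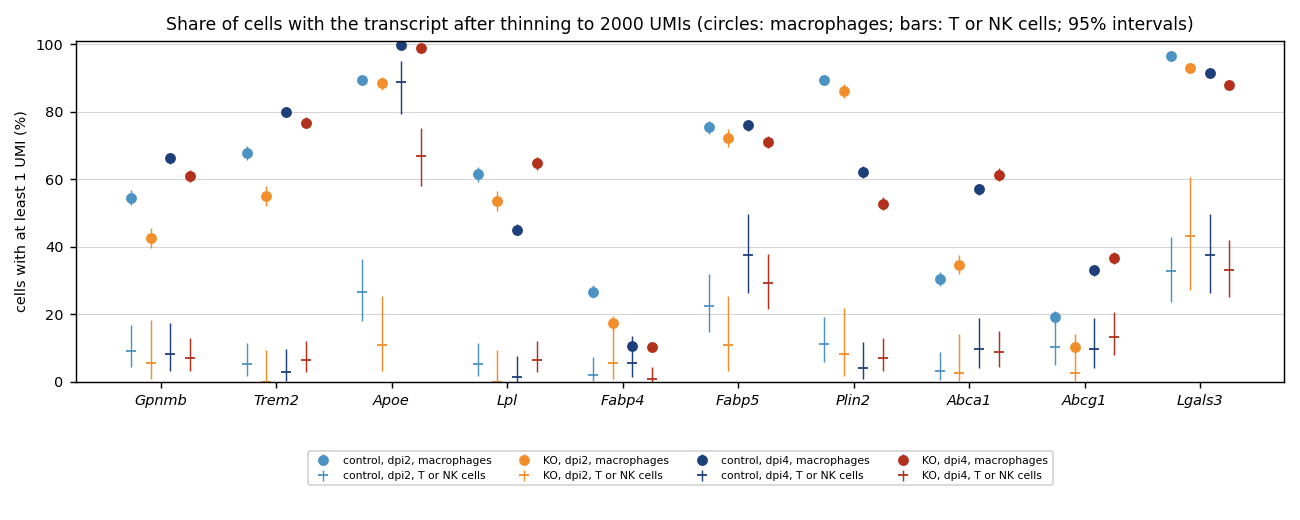
Share of cells with at least 1 UMI of each gene after thinning to 2000 UMIs, in macrophages (circles) and T or NK cells (bars) of each library, with exact 95% binomial intervals. Macrophages lie above T or NK cells for each gene in each library, from 10.2% against 0.787% for Fabp4 in KO dpi4 to 99.8% against 88.9% for Apoe in control dpi4.

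Monocytes, the blood-derived cells from which most of these macrophages form, carried lower levels of most of the list. In control dpi4, from 45 cells, Fabp4 was higher in monocytes than in macrophages, at 245.6 against 151 CPM, and Abcg1 overlapped, at 205 against 216 CPM. At dpi2, 2 of the 10 genes passed the rule (background 4.54% of 10032 genes). Abca1 was at 27.3 CPM in control and 73.8 CPM in KO, a ratio of 2.70 (2.46 to 2.97), and Fabp4 at 129 CPM in control and 62.3 CPM in KO, a ratio of 0.482 (0.447 to 0.519). Both have the direction they had in macrophages on that day. Abca1 passed the rule under 8 of 11 alternatives, with a log2 ratio of 0.51 with each library clustered by itself, 0.66 with macrophages pooled in and 0.94 with doublets kept, against 1.43. Fabp4 passed under 9 of 11, with -0.76 at a minimum of 200 genes and -0.78 with macrophages pooled in, against -1.05. Most control monocytes were in cluster 3, led by Ly6c2 and Cxcl10, and cluster 6, led by Ifitm6 and Plac8 (1267 and 1086 of 2525 cells), and most KO monocytes in cluster 10, led by Vcan, Dmkn and Il6 (598 of 972 cells). Within clusters 3, 6 and 10 the Abca1 ratio was 2.22, 1.80 and 2.54, above 1 in each. The Fabp4 ratio was 0.711, 0.549 and 1.67, so cluster 10 ran against the class. Apoe was higher in KO monocytes at dpi2, 2504 against 1879 CPM, as it was in macrophages, but with each library clustered by itself its log2 ratio of 0.41 became -0.23.

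At dpi4 only 45 control and 57 KO monocytes remained, and 5 of the 10 genes passed the rule in them (background 4.02%). Lpl was at 122 CPM in control and 562.5 CPM in KO, a ratio of 4.63 (3.41 to 6.38) from 51 and 249 UMIs, and Apoe at 9171 and 4549.7 CPM, a ratio of 0.496 (0.470 to 0.524). These are the directions of Lpl and Apoe in macrophages on that day. Trem2 (0.424), Fabp4 (0.377) and Fabp5 (0.257) were lower in KO, where Fabp4 in macrophages was at 1.10. The cells sat in different clusters: of control monocytes 14, 23 and 8 were in clusters 3, 6 and 10, and of KO monocytes 8, 45 and 4. Cluster 6 held less of these genes than cluster 3 in control dpi2, with Fabp5 at 343 against 2240 CPM, Fabp4 at 17.1 against 217 CPM and Trem2 at 64.2 against 194 CPM. The part of this in the dpi4 ratios was not tested.

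Neutrophils, the first leukocytes to enter injured muscle, held few UMIs of the list. At dpi2 Abcg1 was at 125 CPM in control and 61.3 CPM in KO, a ratio of 0.491 (0.399 to 0.604), and Fabp4 at 26.3 and 7.14 CPM, from 40 and 22 UMIs, a ratio of 0.271 (0.154 to 0.468). In T or NK cells Fabp4 was at 15.7 and 21.3 CPM with overlapping intervals, so its neutrophil level is read as background. Abcg1 and Fabp4 were the 2 of 10 genes past the rule, with a background of 8.81%. Neither held once doublets were kept: the log2 ratio of Fabp4 was then 0.33 and that of Abcg1 -0.83. The median log2 ratio over all 5866 genes scored in neutrophils was -0.29, and TMM scaling, which raises every neutrophil ratio by 0.34 on the log2 scale, moved Abcg1 to -0.68. The unnamed neutrophil-like cluster was left out of the class. It made up 1.54% of control dpi2 cells and 12.8% of KO dpi2 cells and had Gpnmb at 1247 CPM in control and 662 CPM in KO.

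Dendritic cells, which present antigen to T cells, held less of the list than macrophages at dpi2, with Lgals3 at 2001 CPM in control and 1389.7 CPM in KO and Fabp5 at 467 and 623 CPM. At dpi2, 2 of the 9 genes with enough UMIs passed the rule (background 3.06%), both lower in KO. Lpl was at 31.3 CPM in control and 15.2 CPM in KO, a ratio of 0.486 (0.332 to 0.701), and Gpnmb at 17.9 CPM in control and 7.61 CPM in KO, a ratio of 0.424 (0.246 to 0.707). Gpnmb was no higher there than in T or NK cells of the same libraries, at 27.0 and 10.7 CPM, and after thinning it was found in 10 of 254 control and 2 of 181 KO dendritic cells (3.94% and 1.10%) against 9.18% and 5.41% of T or NK cells, so its level is read as background. Lpl was found in 3.15% of control and 2.21% of KO dendritic cells, against 5.10% and 0 of 37 T or NK cells, so in control it too is read as background. The log2 ratio of -1.24 for Gpnmb was above 0 under 5 of 9 alternatives, up to 2.25 with each library clustered by itself, and that of -1.04 for Lpl under 4 of 10. Cluster 12, named macrophages here, gave 14.5% to 83.3% of its control dpi2 cells and 22.0% to 82.9% of its 123 KO dpi2 cells to the dendritic class under the 6 alternatives that clustered the cells anew. The part of this in the turned ratios was not tested. At dpi4 none of the 10 passed the rule in dendritic cells (background 1.05%), with Apoe at 0.654 (0.627 to 0.682) and Lpl at 1.06 (0.934 to 1.20). In KO dpi4, Apoe in dendritic cells lay below the 1144 CPM of T or NK cells, so the KO side of its ratio is read as background. The log2 ratio of Lpl, 0.08, ran from -0.65 to 0.95 over the alternatives.

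The wider set of lipid genes, 6 lists with 52 further names, showed few differences of 2-fold between the genotypes and more between the days. The lists hold genes chosen with results of these data known, so their counts are no independent evidence. In macrophages at dpi2, 4 of 47 listed genes with enough UMIs passed the rule, all 4 higher in KO, where 4.46% of all genes passed and 2.43% passed as higher. The median log2 ratio of the lists was 0.22. Hilpda, which blocks fat breakdown at lipid droplets, was at 80.1 CPM in control and 227 CPM in KO, a ratio of 2.84 (2.72 to 2.96). Olr1, a receptor for oxidised lipoprotein, was at 7.82 and 20.4 CPM, a ratio of 2.61 (2.27 to 3.0001). Both differed by more than any of the 10 genes in this comparison. Cst7, an inhibitor of lysosomal proteases, was rarer, at 2.28 and 6.76 CPM (ratio 2.96, interval 2.30 to 3.84), and the lipoprotein gene Apoc2 rarer still, at 0.615 and 1.46 CPM (ratio 2.37, interval 1.42 to 4.08).

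At dpi4, 1 of 48 listed genes passed the rule, near the background of 2.77% in either direction (0.958% higher), so the count is no result about the lists. It was Ch25h, a sterol hydroxylase induced in inflammation, at 1.502 CPM in control and 3.25 CPM in KO (ratio 2.17, interval 1.67 to 2.82). The list median was 0.12. Between days, 9 of 48 listed genes were higher and 6 lower at dpi4 in control, and again 9 higher and 6 lower in KO. Over all genes 10.3% were higher and 6.09% lower in control, and 8.54% and 4.97% in KO. The efflux and lipoprotein list held 6 of the 15 in control and 7 of the 15 in KO, with 5 higher and 1 lower of 9 in control and 5 higher and 2 lower of 9 in KO, and median log2 ratios of 1.36 and 1.43. Pltp, the phospholipid transfer protein, named after its values were seen, was at 67.9 CPM in control dpi2 and 668 CPM in control dpi4. Of the uptake list, 1 was higher and 3 lower of 8 in control, and 0 higher and 3 lower in KO. The uptake receptors Cd36 and Msr1, likewise named after the fact, were lower at dpi4 in control, at 1102 and 317 CPM and at 408 and 115 CPM on the 2 days. Of the 5 lipid-sensing nuclear receptors with enough UMIs, none passed the rule in any of the 4 macrophage comparisons. Between genotypes, 2 had an interval wholly above 1 and 2 wholly below at dpi2 (median log2 ratio 0.03, against -0.02 over all genes), and 4 above and 0 below at dpi4 (0.18, against 0.02). Over all genes 25% lay above and 26.9% below at dpi2, and 27.8% and 23% at dpi4.

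Genes whose level followed each of the 10 most closely were sought over 25 combinations of 8 classes and 4 libraries, among 10562 genes with at least 500 UMIs. The points share libraries and cell classes, so the correlations of log2(CPM + 1) are descriptions without a test. The complement genes C1qb and C1qc, macrophage markers, recurred: Apoe was most like C1qb (0.98) and C1qc (0.97), Trem2 like C1qb (0.95) and Ms4a7 (0.94), Gpnmb like Spp1 (0.95) and C1qb (0.94), and Abca1 like Apoe (0.88), another gene of the list, and C1qc (0.87). Lgals3 was most like Cd68 (0.97) and Rab7b (0.92). Lpl was most like Mertk (0.92), a receptor for dying cells. Fabp4 was most like Itga6 (0.93) and Sgk1 (0.89), Fabp5 like Mtmr10 (0.93) and Dhrs3 (0.91), and Plin2 like Tmem104 (0.91) and Cstb (0.91). Abcg1 had the weakest partner, Abi3 at 0.83, followed by Cant1 at 0.80.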

How the data were processed

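Single-cell RNA was captured from CD45-enriched cells of injured tibialis anterior with a 10x Genomics 3′ kit, and the deposited matrices hold UMI counts per gene and barcode, which the authors made with Cell Ranger 6.1.2 on mm10 (both as named in the submitters' processing notes). The study then used miQC, scDblFinder, Harmony, SingleR and a Wilcoxon test over cells. Here barcodes with at least 500 genes and under 10% mitochondrial UMIs were kept, and the highest Scrublet scores, at 0.8% per 1000 barcodes, were removed as doublets. Counts were scaled to 10000 per cell, and the 4 libraries were clustered together without batch correction (scanpy 1.11.5, leidenalg 0.10.2; 2000 variable genes, 30 principal components, 15 neighbours, resolution 1), with the 10 genes and the 52 listed lipid genes kept out of the variable genes. The 19 clusters were named from 106 markers, of which Trac, Trbc1, Trbc2 and Ighm were not matched; a cluster needed 3 detected markers, and, as a rule added after the clusters were seen, a mean detected share of 15%. Macrophages and monocytes were clustered again into 14 sub-clusters.

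UMIs were summed per class and library and given as CPM with exact Poisson intervals. Ratios have exact conditional binomial intervals and shares exact Clopper-Pearson intervals, all at 95%, and 0 counts were read as up to 3. These intervals cover counting error only. With 1 library per group no test over samples exists, so genes were named by size alone: at least 2-fold, an interval leaving out 1 and at least 50 UMIs in the pair. The genes named are the 10 members, the listed lipid genes past this rule between genotypes in macrophages, and for each member the 2 genes of highest Pearson correlation. Some results that the rule takes in are not reported here. Any other gene is marked as named after its values were seen. The members and the lists were chosen with earlier results of these data known. Apoc2 stands under 2 identifiers, so the 52 names are 53 entries, and its second identifier had too few UMIs to be scored. Alternatives changed the filters, the doublet step, the clustering, the scaling (TMM of edgeR 4.0.16 under R 4.3.3), the weight of cells, the depth and the subtraction of T or NK cell levels. Cells of 1 cluster alone and macrophages without cluster 12 were alternatives chosen after seeing the data. Gene positions and promoters came from RefSeq tables and the GRCm38 annotation.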

Additional observations from a re-analysis of the deposited data

Results flagged for a closer look

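A ratio is listed here when it lay on opposite sides of 1 in 2 groups, each with an interval that left out 1. Each side is 1 library pair, so the difference between the groups was not tested. Lpl met this in both directions of the design. In macrophages KO over control was 0.807 at dpi2 and 1.89 at dpi4, and dpi4 over dpi2 was 0.565 in control and 1.32 in KO, with control dpi4 the low library of the 4. Within clusters at dpi2 KO over control was 0.736, 0.923 and 1.17 for Lpl in clusters 0, 9 and 12, so the last was on the other side of 1. Within clusters the control day ratio of Lpl was mixed, from 0.711 to 1.80, and in cluster 0 it was above 1 in both genotypes (1.12 and 2.42). In monocytes dpi4 over dpi2 was 0.586 for Lpl in control and 2.56 in KO, the dpi4 side from 45 and 57 cells.

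Apoe, the lipoprotein gene, was higher in KO macrophages at dpi2 (1.24) and lower at dpi4 (0.732), and in monocytes the same ratios were 1.33 and 0.496. The monocyte ratio at dpi2 turned with each library clustered by itself, to -0.23 on the log2 scale. Fabp4 in macrophages stood at 0.546 at dpi2 and 1.10 at dpi4, and the exporter Abcg1 at 0.581 and 1.17. The dpi4 ratio of Fabp4 turned, barely, with a minimum of 200 genes, to -0.0017 on the log2 scale. In dendritic cells Lgals3, KO over control, was at 0.694 at dpi2 and 1.06 at dpi4.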

How the results depend on the processing

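Of 440 alternative values for the 40 macrophage ratios, 4 changed sides of 1: Fabp4 between genotypes at dpi4 with a minimum of 200 genes, and, with monocytes pooled in, Fabp5 between days in both genotypes and Fabp4 between days in KO. Over all 64 ratios, 47 of 688 values changed sides, and the other 43 lay outside macrophages. In dendritic cells at dpi2 the log2 ratio between genotypes was 0.66 for Gpnmb and 0.64 for Lpl with a minimum of 200 genes, 2.25 and 1.83 with libraries clustered singly, 1.59 and 0.57 at resolution 0.5, 1.36 and 1.11 with the lipid genes among the variable genes, and 0.63 for Gpnmb with a mitochondrial limit of 15%. Fabp4 in neutrophils was at 0.33 with doublets kept. The cause was not tested. No paired analysis was possible because each group was 1 library, and for the same reason no replicate could be left out.

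Counts past the rule moved as follows. A limit of 1.5-fold gave 4 macrophage genes between genotypes at dpi2 (background over all genes 11.3%) and 1 at dpi4 (7.63%). Between days it gave 9 in control (35.9%) and 6 in KO (32.0%). Between genotypes at dpi2 it gave 4 in monocytes (11.3%) and 2 in neutrophils (25.4%). Macrophages without cluster 12, chosen after seeing the data, had 0, 0, 5 and 4 in the 4 comparisons, and Trem2 between days in KO was then at 1.90. Cluster 12 alone gave 1 in macrophages at dpi2, and clusters 1, 5 and 14 alone gave 1 each at dpi4. Monocytes had 0 with macrophages pooled in or in cluster 6 alone, 1 with a minimum of 200 genes, with doublets kept or in cluster 3 alone, and 6 with libraries clustered singly. Neutrophils had 0 with doublets kept or cells thinned, 1 with libraries clustered singly, TMM or a limit of 200 UMIs, and 5 after subtraction of T or NK levels. Subtraction and equal weights have no interval, so only fold and UMIs decided there. Among these alternatives the share over all genes was computed for the 1.5-fold limit only. The other counts cannot be told from a shift of all genes.

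Depth limits the sparse genes: Fabp4 in neutrophils rests on 40 and 22 UMIs, and the dpi4 monocytes are 45 and 57 cells.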
